A study of Mus musculus with 9 samples.

Results

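The data are RNA-seq read counts of 9 tight junction genes (Cldn1, Cldn3, Cldn4, Cldn7, Ocln, Tjp1, Tjp3, Cgn, and F11r), of 22609 genes listed for each library, in orthotopic tumors of the mouse mammary carcinoma cell line 4T1. The genes were taken by symbol. BALB/c mice were fed a low-fat diet (LFD, 10% of calories as fat) or a high-fat diet (HFD, 60%) for 6 weeks before 500000 4T1 cells were injected into the mammary fat pad, and stayed on that diet. Mice with established tumors received vehicle (0.3% hydroxy propyl cellulose) in the LFD and HFD groups. The HFD + EC359 group ate the HFD and received EC359, an inhibitor of the leukemia inhibitory factor receptor (LIFR), at 5 mg/kg intraperitoneally on 5 days per week. Each group had 3 libraries, labeled as 9 tumors, of which 6 came from mice on the HFD. All tumors were grown from the same cell line, and each library holds bulk RNA of tumor tissue, host cells included. Neither the labels nor the paper state whether whole tumors or pieces were extracted. In such bulk RNA, fewer cells of a type and less RNA per cell cannot be told apart.

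Tight junctions seal the space between neighboring epithelial and endothelial cells near their apical border. Claudins and occludin are membrane proteins with 4 passes through the membrane that meet those of the next cell, and the claudins set which ions pass. F11R (JAM-A) is an immunoglobulin-type adhesion protein of the same site. Inside the cell, the zonula occludens proteins (Tjp1 encodes ZO-1 and Tjp3 encodes ZO-3) and cingulin (Cgn) tie the membrane proteins to the actin cytoskeleton. Loss of claudins and of E-cadherin is a textbook feature of epithelial-mesenchymal transition, and the comparisons here ask how the transcripts of this junction differed with diet and with LIFR inhibition.

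Of the 9 genes, 2 claudin genes, Cldn1 and Cldn4, were lower in HFD tumors than in LFD tumors, by 4.64-fold and 7.21-fold, and both were higher again in HFD + EC359 tumors. Tjp1, the most abundant member, was 1.43-fold higher in HFD tumors and 1.41-fold higher in HFD + EC359 tumors than in LFD tumors. Tjp3 rose with EC359 within the HFD. For Cgn and F11r no difference passed the test in any comparison, and Cldn3, Cldn7, and Ocln were too low to be tested. The plot of the 9 genes by library shows these patterns.

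**Figure D1:**
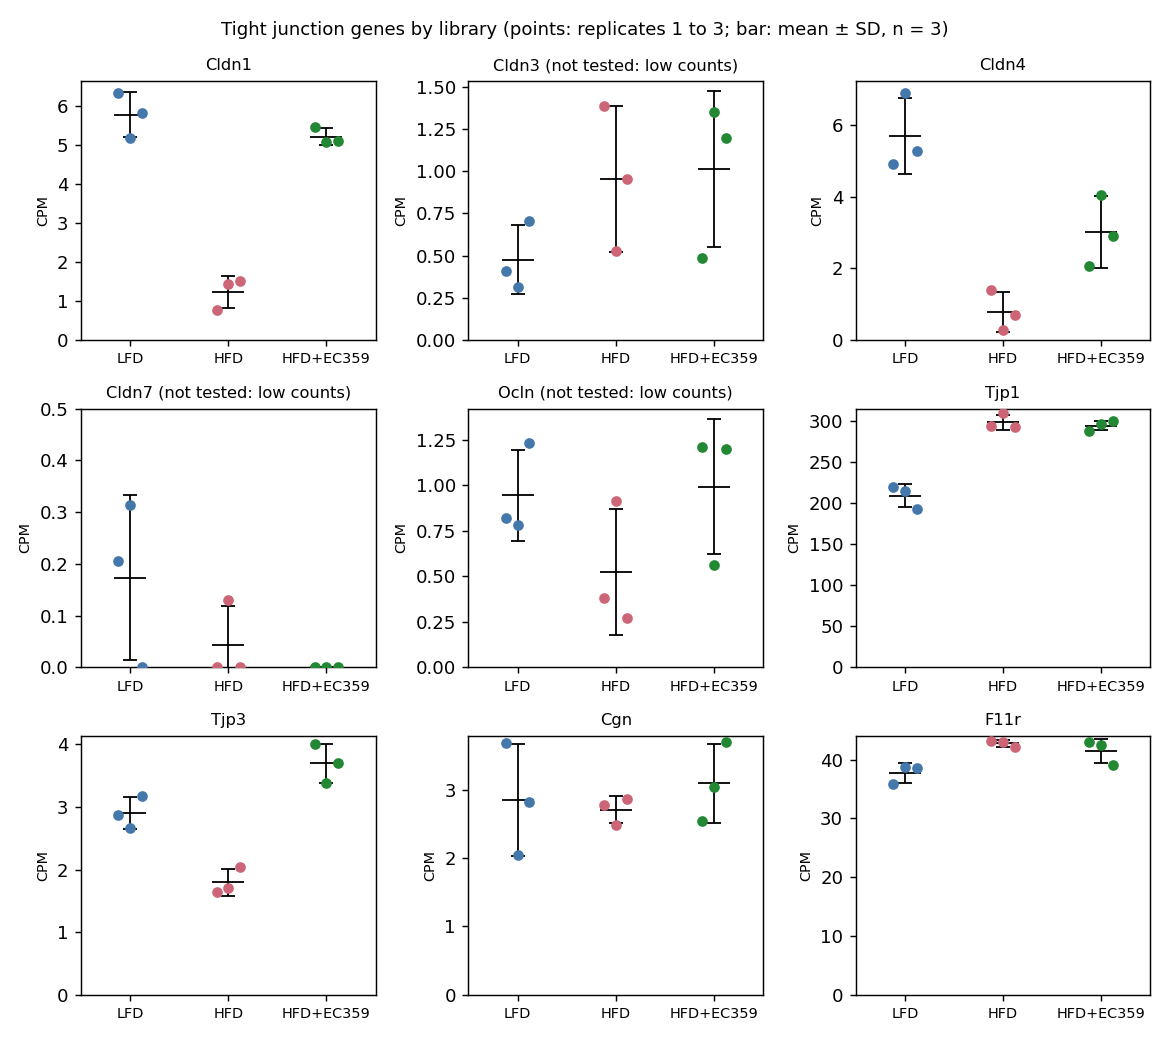
Counts scaled to library size (CPM, y axis, each panel from 0) of the 9 tight junction genes in the LFD, HFD, and HFD + EC359 groups, with a point for each of 3 libraries and a bar for the mean ± SD. Cldn1 and Cldn4 were lowest in the HFD libraries, Tjp1 was higher in both HFD groups, and Cldn7 was at or near 0 throughout.

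The start regions of the 4 genes that passed the test in any comparison are shown. Of these, Cldn1, Cldn4, and Tjp3 had their lowest mean level in HFD tumors, whereas Tjp1 did not. The means of Cgn, which missed the test, and Ocln, which was not tested, were also lowest in HFD tumors. Each region shown is the RefSeq sequence on the gene's strand from 250 bases before to 50 after the transcript start, in build GRCm38.p6. Tjp3 has 2 listed starts. All 9 genes had an entry, with 12 promoters in all. Letters in capitals are matches, on either strand, to 6 motifs. These were the GC box (GGGCGG), the E-box that Snail and Zeb factors bind (CAGGTG), and the AP-1 element (TGANTCA). The others were the STAT element in its shortest palindromic form (TTCNNNGAA), the element of the grainyhead-like factors (AACCNGTT), and the TATA box in its common core (TATAAA).
Cldn1, chr16:26371790-26372089, minus strand: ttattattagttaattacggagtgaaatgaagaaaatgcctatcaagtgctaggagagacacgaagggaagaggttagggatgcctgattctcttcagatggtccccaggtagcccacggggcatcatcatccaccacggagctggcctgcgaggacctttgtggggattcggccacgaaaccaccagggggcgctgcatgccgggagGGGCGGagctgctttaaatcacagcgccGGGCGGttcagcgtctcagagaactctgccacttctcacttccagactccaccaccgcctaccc
Cldn4, chr5:134946885-134947184, minus strand: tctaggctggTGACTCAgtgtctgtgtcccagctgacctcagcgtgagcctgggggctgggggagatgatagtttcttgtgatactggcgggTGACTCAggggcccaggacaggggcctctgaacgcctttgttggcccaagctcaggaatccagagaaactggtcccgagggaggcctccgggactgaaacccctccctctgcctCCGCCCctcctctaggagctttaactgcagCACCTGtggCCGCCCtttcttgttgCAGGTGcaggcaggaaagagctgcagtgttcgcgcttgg
Tjp3 start 1, chr10:81291532-81291831, minus strand: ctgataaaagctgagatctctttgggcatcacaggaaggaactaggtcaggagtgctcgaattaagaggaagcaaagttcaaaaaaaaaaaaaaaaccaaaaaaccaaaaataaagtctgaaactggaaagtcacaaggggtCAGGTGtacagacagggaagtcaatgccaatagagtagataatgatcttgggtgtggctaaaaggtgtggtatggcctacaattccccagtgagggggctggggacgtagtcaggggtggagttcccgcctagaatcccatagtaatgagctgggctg
Tjp3 start 2, chr10:81291218-81291517, minus strand: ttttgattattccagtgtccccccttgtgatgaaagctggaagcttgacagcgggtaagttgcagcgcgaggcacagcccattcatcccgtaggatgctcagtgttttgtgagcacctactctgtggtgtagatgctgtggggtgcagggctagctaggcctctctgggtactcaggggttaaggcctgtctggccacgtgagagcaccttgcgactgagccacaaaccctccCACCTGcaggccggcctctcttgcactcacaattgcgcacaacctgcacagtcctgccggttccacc
Tjp1, chr7:65371195-65371494, minus strand: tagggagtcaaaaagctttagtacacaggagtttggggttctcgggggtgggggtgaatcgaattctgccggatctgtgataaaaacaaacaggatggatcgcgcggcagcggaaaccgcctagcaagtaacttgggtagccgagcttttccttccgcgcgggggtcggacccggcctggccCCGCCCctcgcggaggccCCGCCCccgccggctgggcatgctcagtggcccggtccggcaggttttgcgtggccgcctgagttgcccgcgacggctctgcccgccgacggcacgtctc
The Cldn4 window held 2 CAGGTG boxes, 14 bases before and 11 bases after the start, and each Tjp3 window held 1, while the Cldn1 and Tjp1 windows held none. CAGGTG occurred in 20.2% of the 32851 promoters of the same length. Cldn4 also held 2 AP-1 matches, a motif found in 7.81% of all promoters, and Cldn1, Cldn4, and Tjp1 each held 2 GC boxes, found in 35.7%. None of the 5 windows held the STAT, grainyhead-like, or TATA letters, which occurred in 8.3%, 2.09%, and 13.6% of all promoters. Base composition ranged widely, from 31 CpG in the Tjp1 window and 15 in that of Cldn1 to 9 in that of Cldn4 and 3 at start 1 of Tjp3, against a median of 7 over all promoters. Among the members not shown, CAGGTG also occurred in the windows of Cldn3 and F11r, at start 2 of Cldn7, and in each Ocln window. F11r held 1 AP-1 match, Cgn 1 grainyhead-like match, and start 2 of Cldn7 1 STAT match. The motifs were thus not particular to the genes shown. A match is a description of the letters and not a binding site.

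In the annotation of the deposited counts (mm9), Cldn1 lies on chromosome 16 at 26356732 to 26371925 and Tjp1 on chromosome 7 at 72441051 to 72516130, both on the minus strand. Cldn4 (chromosome 5, 135420993 to 135422804, minus strand) and Cldn3 (135462084 to 135463346, plus strand) are single-exon neighbors, 39279 bases apart with 0 listed genes between them. Tjp3 lies on chromosome 10 at 80735945 to 80754012. Cldn3 and Tjp3 overlap a gene on the other strand (Wbscr25 and Apba3), and the counting used strand.

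Library totals were 5085268 to 6509005 counts in the LFD group, 7314525 to 7922667 in the HFD group, and 8043470 to 9750959 in the HFD + EC359 group. At an equal level, the LFD values thus carry the most counting error. For Cldn1 and Cldn4 the smallest counts, and so the largest relative counting error, were in HFD libraries. These had 6 to 11 counts of Cldn1 and 2 to 11 of Cldn4, against 31 to 33 and 24 to 44 in LFD libraries. A count of 0 allows up to 3 counts, or 0.300 to 0.614 CPM, for counting error alone. A gene is called past the test (rose or fell) at an adjusted p under 0.05, and differentially expressed when it also changed more than 2-fold with an adjusted p below 0.01. The comparisons share libraries, since HFD enters the diet and the drug comparison and LFD enters both comparisons against it, so their values are given side by side and are not independent. Libraries also differed with base composition. Relative to the mean of all libraries, the log2 level of genes in the lowest GC quartile minus that in the highest was -0.54 to -0.32 in LFD libraries, 0.10 to 0.16 in HFD libraries, and 0.25 to 0.30 in HFD + EC359 libraries.

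Per transcript length, the scaffold gene Tjp1 was the most abundant member in every group. On the scale of fragments per kilobase scaled to library size (FPKM), its level was 29.4 ± 1.97 (SD, n = 3) in LFD tumors, 42.0 ± 1.31 in HFD tumors, and 41.4 ± 0.838 in HFD + EC359 tumors. F11r followed in every group, at 15.2 ± 0.673, 17.2 ± 0.219, and 16.7 ± 0.842 FPKM. All other members were below 4 FPKM in every library, and so below F11r. In LFD tumors the order went on with Cldn4 (3.15 FPKM), Cldn1 (1.78), and Tjp3 (0.957), whose library ranges did not overlap with the next gene in the order. Cgn (0.565) overlapped with Cldn3 (0.377), and Cldn3 with Ocln (0.296). Cldn7 was last at 0.119 and did not overlap with Ocln. In HFD tumors, the members from Cldn3 (0.756 FPKM) through Tjp3, Cgn, Cldn4, Cldn1, and Ocln down to Cldn7 (0.0301) each overlapped with the next in the order. Tjp3 (0.541 to 0.675) and Cgn (0.494 to 0.568) lay above Cldn1 (0.234 to 0.463), Ocln, and Cldn7 in every library, and Cldn3 lay above Ocln and Cldn7. In HFD + EC359 tumors, Cldn4 (1.66) and Cldn1 (1.61) were again next after F11r and overlapped with each other, followed by Tjp3 (1.22). The 4 claudin members together reached 5.13 to 5.88 FPKM in LFD libraries, 1.09 to 2.1 in HFD libraries, and 3.21 to 4.88 in HFD + EC359 libraries.

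**Figure D2:**
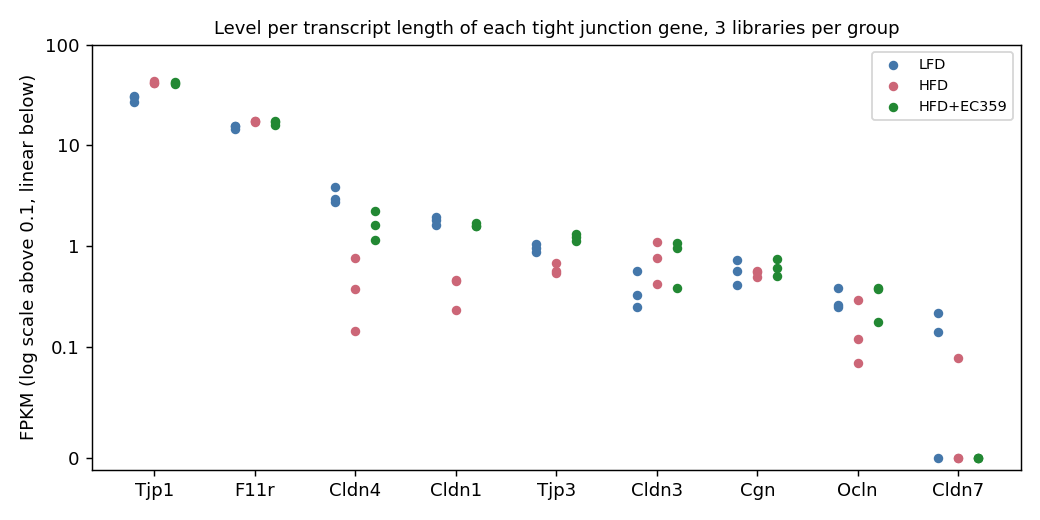
FPKM (y axis, log scale above 0.1 and linear below) of each tight junction gene, ordered by its mean, with a point for each of 3 libraries per group. Tjp1 and F11r stood above all other members in every library, and the Cldn4 and Cldn1 points of the HFD group lay below those of both other groups.

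In the comparison of HFD with LFD, which asks what the diet changed, 6 of the 9 members passed the filter on low counts. Of these, 2 were differentially expressed, both lower, where 5.69% of all 13366 tested genes were differentially expressed, 3.02% higher and 2.68% lower. Past the test, 1 member rose and 2 fell, against 51.8% of all tested genes past the test, 26% higher and 25.8% lower, so the share past the test was close to that of all genes. The members' median log2 fold change was -0.36, beside 0.01 over all tested genes. Cldn1 and Cldn4 reached the filter's limit of 1.31 CPM in all 3 libraries of the LFD and of the HFD + EC359 group and in 2 and 1 HFD libraries, so they entered through the groups in which they were high.

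Cldn1, a claudin of epidermal and many other epithelial barriers, had 6.34, 5.18, and 5.82 CPM in LFD libraries 1 to 3, from 31 to 33 counts each. It had 0.757, 1.44, and 1.5 CPM in the HFD libraries, from 6 to 11 counts. The highest HFD library was below the lowest LFD library. Cldn1 fell by 2.21 on the log2 scale (SE 0.286, 95% interval -2.80 to -1.63, adjusted p = 8.97e-08).

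Cldn4, an epithelial claudin, had 4.91, 6.91, and 5.29 CPM in the LFD libraries, from 24 to 44 counts. In the HFD libraries it had 1.39, 0.262, and 0.682 CPM, from 2 to 11 counts, so HFD replicate 1 was the highest and replicate 2 the lowest of its group. All HFD values were below all LFD values. Cldn4 fell by 2.85 on the log2 scale (SE 0.369, 95% interval -3.60 to -2.1, adjusted p = 9.36e-08), which was -3.58 without HFD replicate 1 and -2.44 without HFD replicate 2.

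Tjp1, which encodes the scaffold ZO-1, moved the other way. It had 219, 215, and 193 CPM in the LFD libraries and 294, 309, and 293 CPM in the HFD libraries. The groups did not overlap, and the 1.43-fold difference had the smallest error of the 6 tested members (log2 0.51, SE 0.0444, adjusted p = 2.02e-11). With each library's trend on GC content and gene length removed, the log2 difference was 0.35 and still passed the test.

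Tjp3, encoding ZO-3, had 2.86, 2.67, and 3.17 CPM in the LFD libraries and 1.64, 1.70, and 2.04 CPM in the HFD libraries. The groups did not overlap, but the log2 difference of -0.69 missed the test (SE 0.305, adjusted p = 0.0582). It passed when only genes reaching 10 counts in all 9 libraries were fitted (adjusted p = 0.0463). F11r had 35.8, 38.8, and 38.6 CPM in LFD and 43.1, 43.0, and 42.1 CPM in HFD libraries, which again did not overlap. Its log2 difference of 0.18 (SE 0.0814, adjusted p = 0.0686) missed the test, and it passed when libraries were scaled by their totals alone (0.22, adjusted p = 0.0249). In all, 5 of the 6 tested members did not overlap between the groups, 3 lower and 2 higher in HFD, against 57.1% of all tested genes. Cgn, the cingulin gene, had 3.68, 2.04, and 2.82 CPM in LFD and 2.77, 2.49, and 2.86 CPM in HFD libraries. The groups overlapped, and the interval of its log2 difference ran from -0.65 to 0.57 (adjusted p = 0.921).

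Treatment with EC359 was compared with vehicle within the HFD. Here 3 of the 6 tested members, Cldn1, Cldn4, and Tjp3, rose and were differentially expressed, and none fell. Over all tested genes, 3.46% were differentially expressed, 2.08% higher and 1.38% lower, and 26.5% were past the test, 12.7% higher. The members' median log2 fold change was 0.62, beside 0.01 over all tested genes. The same 3 members did not overlap between these groups, against 41.3% of all tested genes.

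Cldn1 had 5.46, 5.08, and 5.10 CPM in the HFD + EC359 libraries, from 45 to 51 counts, all above the highest HFD library at 1.5 CPM. The rise was 4.21-fold (log2 2.07, SE 0.270, 95% interval 1.53 to 2.62, adjusted p = 3.09e-07). Cldn4 had 2.06, 4.06, and 2.90 CPM in the HFD + EC359 libraries, from 17 to 36 counts, and its lowest value lay above the highest HFD value of 1.39 CPM. Its rise was 3.79-fold (log2 1.92, SE 0.392, 95% interval 1.12 to 2.72, adjusted p = 0.000313). Without HFD replicate 1, the library with the most Cldn4 in its group, the log2 rise was 2.64, and without HFD replicate 2 it was 1.51. With all libraries thinned to the smallest total, Cldn4 stayed past the test (adjusted p = 0.0164) and was no longer differentially expressed.

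Tjp3 had 4.00, 3.39, and 3.70 CPM in the HFD + EC359 libraries, above the 2.04 CPM of the highest HFD library. It rose 2.05-fold (log2 1.04, SE 0.264, 95% interval 0.50 to 1.57, adjusted p = 0.00316), just past the fold threshold. Tjp3 was no longer differentially expressed with DESeq2 (adjusted p = 0.0355), without HFD replicate 1 (0.0204) or 2 (0.0168), or without HFD + EC359 replicate 1 (0.0162) or 3 (0.013), and it missed the test when libraries were thinned to the smallest total (log2 0.88, adjusted p = 0.0646).

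Tjp1, by contrast, had 288, 296, and 300 CPM with EC359, which overlapped with the 293 to 309 CPM of the HFD libraries. The 95% interval of its log2 difference ran from -0.10 to 0.06 (adjusted p = 0.781). F11r had 42.9, 42.4, and 39.1 CPM with EC359, and the interval was -0.20 to 0.11 (adjusted p = 0.713). Cgn had 2.55, 3.05, and 3.70 CPM, and its interval of -0.33 to 0.74 is wide at this depth (adjusted p = 0.621).

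**Figure D3:**
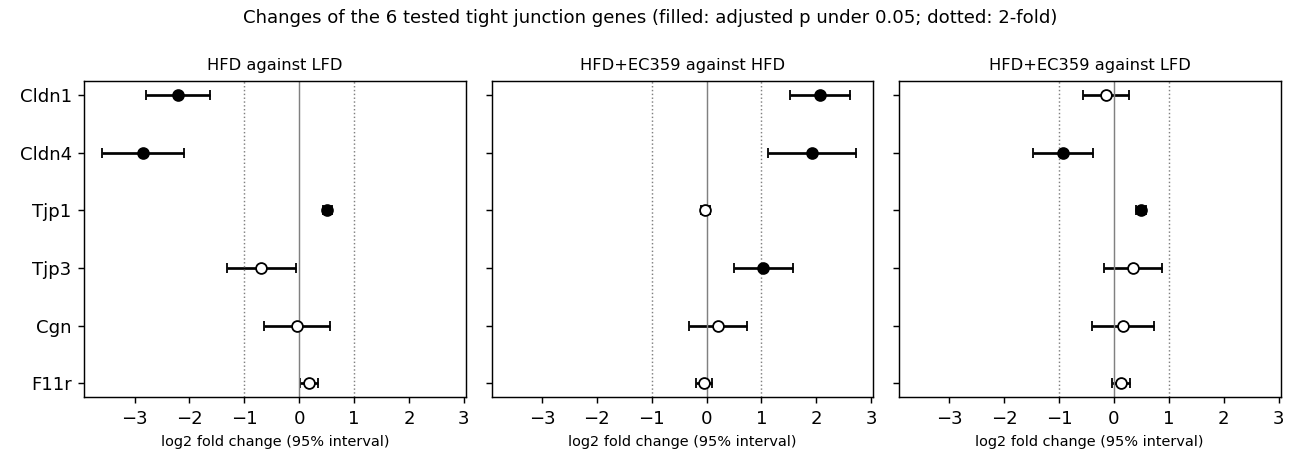
Log2 fold changes (x axis) of the 6 tested tight junction genes in the 3 comparisons, with unadjusted 95% intervals, filled points for an adjusted p under 0.05, and dotted lines at a 2-fold change. Cldn1 and Cldn4 were below -1 for HFD against LFD and above 1 for HFD + EC359 against HFD, and the Tjp1 difference was 0.51 against LFD in HFD tumors and -0.02 with EC359 against HFD.

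The levels in HFD + EC359 tumors were then set against those in LFD tumors, groups that differ in diet and drug. None of the 6 tested members was differentially expressed by edgeR or DESeq2 (2 had an unadjusted p under 0.05), where 5.09% of all tested genes were (3.66% higher), and 1 rose and 1 fell past the test, against 58.3% of all tested genes, 29.2% higher and 29.1% lower. Cldn1, at 5.08 to 5.46 CPM with EC359 and 5.18 to 6.34 CPM in LFD tumors, overlapped between the groups (log2 -0.14, 95% interval -0.56 to 0.28, adjusted p = 0.578). Removing the GC and length trend gave -0.52 for Cldn1 (adjusted p = 0.0378). Cldn4 stayed lower than in LFD tumors by 1.90-fold, and no HFD + EC359 library reached the lowest LFD library of 4.91 CPM (log2 -0.93, SE 0.270, adjusted p = 0.0038). It was differentially expressed without LFD replicate 1 (-1.02), without HFD + EC359 replicate 2 (-1.19), and with thinned libraries (-1.24). Tjp1 was 1.41-fold higher than in LFD tumors (log2 0.49, SE 0.0439, adjusted p = 2.08e-11). Tjp3 was above all LFD libraries, with a log2 difference of 0.35 that missed the test (adjusted p = 0.248) and was 0.71 after the GC and length correction (adjusted p = 0.0208). F11r (0.13, adjusted p = 0.162) and Cgn (0.17, adjusted p = 0.629) also missed the test. F11r passed it with libraries scaled by totals alone (0.21, adjusted p = 0.0285). Of the 6 tested members, 4 did not overlap between these groups, against 62.9% of all tested genes.

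The members that did not pass the filter were near the limit of detection. Cldn3, a claudin of simple epithelia, had 2, 2, and 4 counts in the LFD libraries, 11, 4, and 7 in the HFD libraries, and 4, 12, and 12 in the HFD + EC359 libraries. The groups overlapped in CPM. Ocln, which encodes occludin, had 4, 5, and 7 counts in LFD, 3, 7, and 2 in HFD, and 10, 5, and 12 in HFD + EC359 libraries, again with overlap. When all genes with at least 1 count were fitted, Cldn3 differed by log2 1.0 (adjusted p = 0.236) between HFD and LFD and by 0.10 (adjusted p = 0.947) with EC359. Ocln differed by -0.82 (adjusted p = 0.329) and 0.91 (adjusted p = 0.3). Cldn7, another epithelial claudin, had 1, 2, and 0 counts in LFD, 0, 1, and 0 in HFD, and 0 in all HFD + EC359 libraries, which is at or below the limit that a count of 0 allows.

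For each tested member, the genes with the most similar profile over the 9 libraries were found by the root mean square difference of centered log2 CPM. The profile of Cldn1 was nearest to those of Pla2g2f (0.122) and Zfp750 (0.161), both known from epidermis. Zfp750, a transcription factor of epidermal differentiation, had a mean of 4.95 CPM in LFD, 0.792 in HFD, and 4.24 in HFD + EC359 tumors. Cldn4 was nearest to Endou (0.187) and Lce1f (0.282), a late cornified envelope gene. Tjp3 was nearest to Niacr1 (0.120) and Il20rb (0.126), Tjp1 to Rpe (0.0359) and Rbm27 (0.0391), and Cgn to Cables1 (0.131) and AW011738 (0.136). F11r was nearest to Ctnnb1 (0.0310), the β-catenin gene, and Fam171a1 (0.0334). Likeness here is over 9 libraries that fall into 3 groups, and is a description.

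Other genes of cell junctions were described from lists of other claudins, other junction membrane proteins, other scaffold and polarity proteins, adherens junctions, desmosomes, and transcription and splicing factors of epithelial junction genes. Of the other claudins, 3 of 19 passed the filter. Cldn5, the endothelial claudin, rose by 0.49 on the log2 scale (adjusted p = 0.000193) in HFD tumors and fell by 0.34 (adjusted p = 0.0069) with EC359, directions opposite to those of Cldn1 and Cldn4. The fall with EC359 was lost with thinned counts. Cldn12 fell by 0.24 (adjusted p = 0.0103) in HFD tumors, which was lost without LFD replicate 3 or HFD replicate 3. Cldn15 was higher with EC359 (log2 1.05, adjusted p = 0.00624) from 9 to 17 counts in HFD libraries, and missed the test without HFD replicate 3 or with DESeq2. Among other junction membrane proteins, 5 of 11 were tested. Jam2, a vascular adhesion molecule, and Ildr2 were differentially expressed and higher in HFD tumors (log2 1.31 and 2.27), and Lsr, the tricellular junction receptor, fell by 0.86. Counts in LFD libraries were low, at 6, 12, and 14 for Jam2 and 3, 7, and 3 for Ildr2. Ildr2 fell by 0.97 with EC359 against HFD (adjusted p = 0.00795), which was lost in 4 alternatives. Against LFD it was differentially expressed and higher in HFD + EC359 tumors (1.30), a call lost in 13 alternatives. Crb3, a polarity gene of the epithelial apical membrane, had 8, 6, and 3 counts in LFD libraries and 0 in all HFD libraries, and was not tested.

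All 23 other scaffold and polarity genes were tested. None was differentially expressed between HFD and LFD by edgeR or DESeq2, where 5.69% of all tested genes were by edgeR. Past the test, 4 rose and 7 fell, against 51.8% of all tested genes past it. With EC359 against HFD, 2 rose and 7 fell past the test, against 26.5% of all tested genes past it. Pard3b, a polarity gene, was differentially expressed and lower with EC359 (log2 -1.19, adjusted p = 0.00423), but not with DESeq2, with thinned counts, or without HFD replicate 1 or 3 or any HFD + EC359 library. Against LFD, Pard3b (-1.07) and Csda (-1.05) were differentially expressed and lower in HFD + EC359 tumors. The Pard3b call against LFD was lost in 8 alternatives, and without LFD replicate 3 it also missed the test. Csda was no longer 2-fold lower in 4 alternatives, among them without LFD replicate 1. The most abundant genes of the list were Csda, Arhgef2, and Amotl1, and between HFD and LFD their log2 fold changes were -0.76, -0.22, and 0.15, all past the test.

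Of 12 tested adherens junction genes, 3 were differentially expressed in HFD tumors, all lower: Cdh1, encoding E-cadherin, with a log2 fold change of -2.27 (adjusted p = 3.52e-16), Cdh3, encoding P-cadherin, with -2.76, and Pvrl4, encoding nectin-4, with -1.33. Cdh1 (1.75) and Cdh3 (2.51) were differentially expressed and higher with EC359, and Pvrl4 rose by 0.72. The abundant catenin genes Ctnnb1, Ctnnd1, and Ctnna1 differed by no more than 0.21 between HFD and LFD. Of 12 tested desmosome genes, 9 were differentially expressed and lower in HFD tumors and 8 were differentially expressed and higher with EC359. Past the test, 10 fell in HFD tumors, and 10 rose and 2 fell with EC359. Of all tested genes, 2.68% were differentially expressed and lower in HFD tumors, and 2.08% higher with EC359. Past the test, 25.8% of all tested genes fell in HFD tumors, and 12.7% rose and 13.8% fell with EC359. The plaque genes Dsp (log2 -2.81) and Pkp1 (-3.11) and the membrane gene Perp (-2.82) fell in HFD tumors and rose by 2.28, 2.49, and 2.32 with EC359. Plakoglobin (Jup), which adherens junctions share, fell by 0.25 in HFD tumors and missed the test after the GC and length correction.

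Of 15 tested transcription and splicing factors linked to epithelial junction genes, 8 were differentially expressed and lower in HFD tumors, and 5 were differentially expressed and higher with EC359. Past the test, 2 rose and 10 fell in HFD tumors, and 7 rose and 2 fell with EC359. Of all tested genes, 2.68% were differentially expressed and lower in HFD tumors, and 2.08% higher with EC359. Past the test, 26% of all tested genes rose and 25.8% fell in HFD tumors, and 12.7% rose and 13.8% fell with EC359. The grainyhead-like genes Grhl1 (-2.67), Grhl2 (-1.19), and Grhl3 (-2.46), whose products activate claudin and cadherin genes, fell in HFD tumors, as did Ovol1 (-2.99), a repressor of mesenchymal genes. The epithelial splicing regulators Esrp1 (-2.22) and Esrp2 (-2.1) fell too. With EC359, the log2 fold changes were 2.12 for Grhl1, 0.89 for Grhl2, 1.92 for Grhl3, 2.07 for Ovol1, 1.58 for Esrp1, and 1.29 for Esrp2, all past the test. Elf3 (-1.04) and Klf5 (-1.19) were lower in HFD tumors, and with EC359 neither passed the test (0.51 and -0.16). After removal of the GC and length trend, Elf3 and Klf5 stayed past the test and were no longer 2-fold lower, and the same held for Elf3 without LFD replicate 1 or HFD replicate 2. The 6 tested repressors of epithelial genes went different ways. Zeb1 rose by 0.92 in HFD tumors (adjusted p = 1.38e-05) and fell by 0.45 with EC359 (adjusted p = 0.0118), and the fall was lost without HFD replicate 1 or 2, without HFD + EC359 replicate 2, and with DESeq2. Zeb2 rose by 0.62 in HFD tumors (adjusted p = 5.29e-12) and differed by 0.08 with EC359 (adjusted p = 0.206). Over 20 alternatives, the Zeb2 rise in HFD tumors ranged from 0.19 to 0.66 and stayed past the test. Twist1 fell by 0.34 in HFD tumors (adjusted p = 0.000797), which was lost after the GC and length correction, and by 0.31 with EC359 (adjusted p = 0.00497). Snai1, the most abundant of this list, differed by 0.16 (adjusted p = 0.137) and -0.15 (adjusted p = 0.18), and Snai2 and Twist2 also missed the test in both comparisons.

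**Figure D4:**
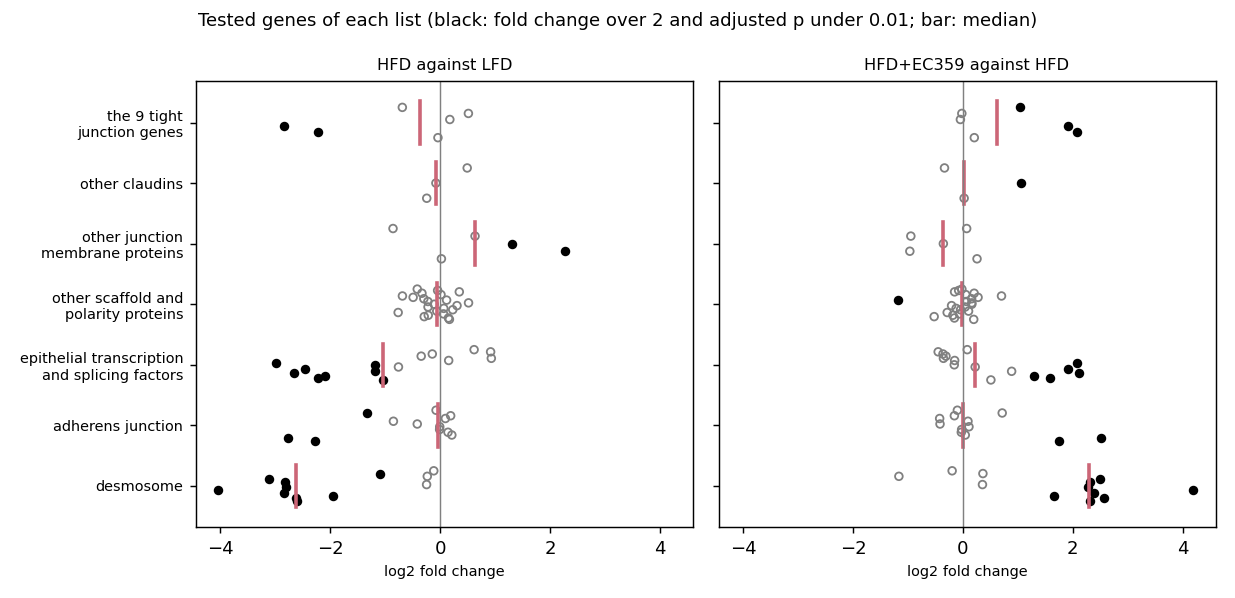
Log2 fold changes (x axis) of all tested genes of each junction list for HFD against LFD and HFD + EC359 against HFD, with black points for differentially expressed genes and a bar at the list's median. Desmosome genes and epithelial transcription and splicing factors lay mostly below 0 in HFD tumors, whereas scaffold and polarity genes lay near 0.

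The summed markers of epithelial types were lowest in HFD tumors, as Cldn1, Cldn4, and Tjp3 were. The suprabasal epidermis markers, of which 15 of 17 were tested, summed to 421 to 441 CPM in LFD libraries, 159 to 166 in HFD libraries, and 326 to 335 in HFD + EC359 libraries. Of these, 10 were differentially expressed and lower in HFD tumors and 12 higher with EC359, against 2.68% and 2.08% of all tested genes. None was at 0 in all libraries. Not all followed: 1 marker passed the test higher in HFD tumors. Flg2 had 7.37 to 8.46 CPM in LFD, 10.5 to 12.5 in HFD, and 14.3 to 15.5 in HFD + EC359 libraries, and Krt10 had 46.2 to 59.2 CPM over all 9 libraries. Basal epithelium markers, led by Krt14, Krt5, and Krt17, summed to 1106 to 1278, 78.1 to 89.0, and 526 to 533 CPM, with 5 of 5 differentially expressed in both comparisons. Simple epithelium markers summed to 1115 to 1136, 705 to 715, and 763 to 792 CPM, carried by Krt8 and Krt18. In this list Epcam had 6.87 to 7.77, 0.883 to 1.91, and 4.40 to 5.80 CPM, while Krt19 and Krt7 were at most 1.89 CPM in any library. All 7 secretory mammary markers had at most 3 counts in every library. Among the epithelial genes of these carcinomas, Krt8 and Krt18 were thus abundant, whereas Epcam, Cldn3, Cldn7, and Ocln were low or near 0. The part of epidermal or basal epithelial cells in the claudin values was not tested.

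**Figure D5:**
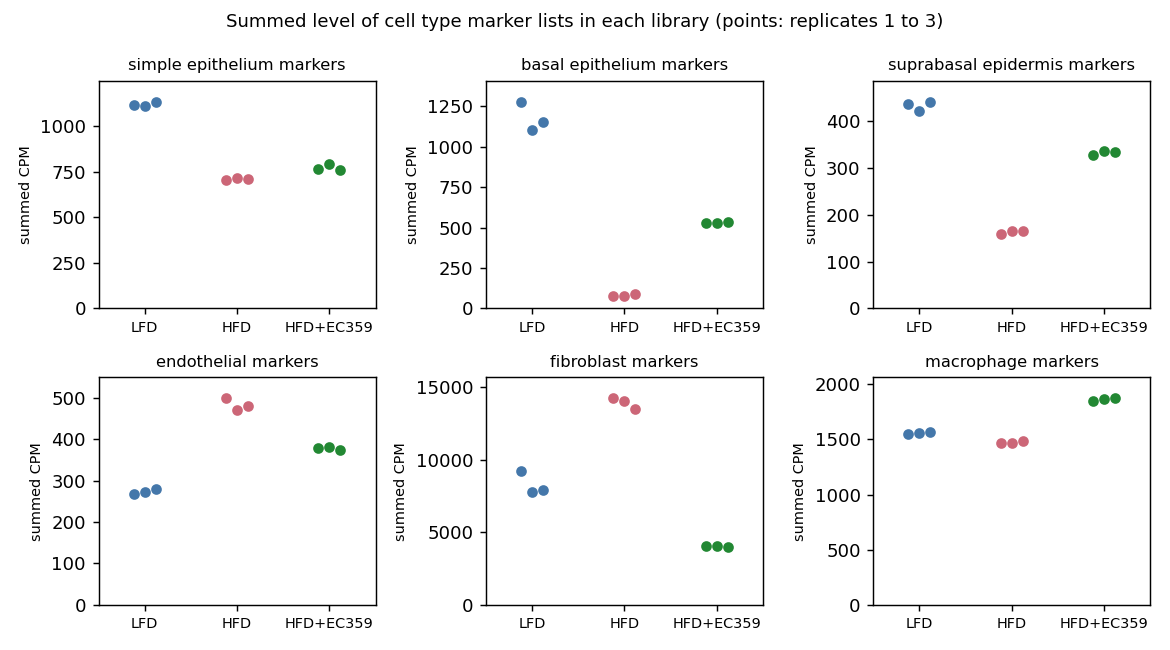
Summed CPM (y axis, from 0) of 6 cell type marker lists in each library, with points for replicates 1 to 3. The basal epithelium sum was 1106 to 1278 CPM in LFD, 78.1 to 89.0 in HFD, and 526 to 533 in HFD + EC359 libraries, and the simple epithelium sum ranged from 705 to 1136 CPM over all libraries.

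Stromal markers had other patterns. For scale, 26% of all tested genes rose and 25.8% fell past the test in HFD tumors, and 12.7% rose and 13.8% fell with EC359. With EC359 against HFD, 2.08% of all tested genes were differentially expressed and higher and 1.38% lower. Endothelial markers, of which 9 of 9 were tested, rose together past the test in HFD tumors, with sums of 268 to 280 CPM in LFD, 471 to 499 in HFD, and 374 to 382 in HFD + EC359 libraries. Cldn5 and Jam2, which endothelial cells use, had their highest level in the same group. Fibroblast markers, led by Col1a1, summed to 7759 to 9223, 13510 to 14260, and 3979 to 4086 CPM, so the sum was highest where Cldn1 and Cldn4 were lowest. The sum was carried by Col1a1, Col1a2, and Col3a1, and 5 of the 8 markers fell and 1 rose past the test with EC359. Pdgfra was highest with EC359, at 320 to 328 CPM in LFD, 366 to 383 in HFD, and 468 to 484 in HFD + EC359 libraries. Macrophage markers summed to 1547 to 1570, 1469 to 1484, and 1852 to 1875 CPM, highest with EC359. Not all followed the sum: 4 of the 8 rose and 2 fell past the test in HFD tumors. Cd14 was lowest with EC359, at 57.4 to 61.7 CPM, and reached 99.4 CPM in LFD libraries. Skeletal muscle markers summed to 113 to 139 CPM over all libraries. With EC359 against HFD, 2 of them were differentially expressed and higher and 2 lower. Myh4 had 46.6 to 54.1 CPM in HFD and 16.9 to 19.1 in HFD + EC359 libraries. Myh1 had at most 13.6 CPM in HFD and at least 35.8 in HFD + EC359 libraries. T cell markers summed to 10.8 to 14.1 CPM in LFD, 9.56 to 10.5 in HFD, and 14.6 to 16.5 in HFD + EC359 libraries. The adipocyte marker sum was 8.46 to 10.2 CPM in LFD, 21.6 to 25.5 in HFD, and 22.6 to 26.2 in HFD + EC359 libraries. It was carried by Fabp4, with 4.91 to 7.38 CPM in LFD and 18.7 to 21.4 in HFD libraries. Only 3 of the 7 markers were tested, and 1 rose past the test in HFD tumors. Adipoq had 0.157 to 0.705 CPM in LFD and 0.262 to 0.757 in HFD libraries. The part of these cells in the values of the tight junction genes was not tested.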

How the data were processed

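The RNA-seq libraries were labeled as 9 tumors, with 3 libraries per group as named in the titles. The authors deposited expected counts of read pairs per gene, without normalization. The file headers name featureCounts 1.5.0-p1 on mm9 alignments, counted by strand with a minimum mapping quality of 2, pairs with several genes or alignments being split into fractions. The submitters' processing notes name HISAT2 2.1.0, and the paper's methods name TopHat2 and HTSeq. Fractions occurred in 1.19% to 3.55% of a library's genes, and values were rounded to whole numbers. Totals were 5085268 to 9750959 counts.

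In R 4.3.3, filterByExpr left 13366 of 22609 genes. The quasi-likelihood test of edgeR 4.0.16 was fitted to all 9 libraries with TMM factors, with Benjamini-Hochberg adjustment over all tested genes. CPM used TMM-scaled totals, and FPKM divided CPM by gene length. Labels do not tie libraries to particular mice, so p-values measure the spread between these libraries. Pairs of libraries were compared by a chi-square averaged over genes, which is near 1 for counting error alone. It was 1.41 to 1.53 for HFD pairs and 1.44 to 1.57 for HFD + EC359 pairs. LFD replicates 2 and 3 gave 1.36, while LFD replicate 1 gave 3.10 against replicate 2 and 2.54 against replicate 3. Whether the libraries of a group came from separate mice was not tested, so p-values may not cover variation between mice. On simulated data, 191 of 200 genes with a planted 3-fold change were found and 1 unchanged gene was called among 13366 genes (HFD against LFD). The counts were drawn from the fitted model, with changes planted in randomly drawn tested genes. The simulation therefore checks the fit itself, and neither variation outside the model nor the low counts of the members. The members, gene lists, and tests were chosen with earlier results of these data known. Genes named were all 9 members, the differentially expressed and 3 most abundant genes of each list, of which a part is shown, and the 2 nearest profiles per tested member. Zeb1, Zeb2, Snai2, Twist2, Lsr, Crb3, Grhl2, Cldn5, and Cldn12 and the markers beyond the leading genes were named for their roles after values were seen. Alternatives were DESeq2 1.42.0, other scalings and filters, a GC and length trend (4 spline degrees of freedom), thinned counts, and each library left out in turn. Sequences were read from RefSeq (GRCm38.p6). The result of 1 gene of these lists is not reported here.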

Additional observations from a re-analysis of the deposited data

How the results depend on the processing

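The low counts of Cldn1 and Cldn4 set most limits. With at least 10 counts required in every library, these genes were not tested, and the differentially expressed members were 0 in the diet comparison and 1 in the drug comparison, with 1 member past the test in the latter and 1 for HFD + EC359 against LFD. With EC359 against HFD, 1 member was differentially expressed with thinned counts and 1 at a log2 fold change of at least 2. For HFD + EC359 against LFD, 1 member was differentially expressed with thinned counts, 0 to 1 with a library left out, and 4 members passed the test with the GC and length trend removed, with or without the block. The differentially expressed genes of the other junction lists were 17 for EC359 against HFD, and 11 with the count minimum. For HFD + EC359 against LFD they were 5, and 2 with DESeq2, 3 with the count minimum, 3 with the GC and length trend and the block, and 2 to 5 with a library left out, lowest without HFD + EC359 replicate 3 (2) and without LFD or HFD replicate 3 (3 each).

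The log2 fold change of Cgn between HFD and LFD, -0.04, changed sign to 0.00245 with totals alone, 0.0771 with the GC and length trend removed, and 0.0743 with the block added. It ranged from -0.255 to 0.167 with a library left out, above 0 without LFD replicate 1 (0.167) or HFD replicate 2 (0.0174). Against LFD with EC359 it ranged from -0.0507 (without LFD replicate 2) to 0.374. That of Tjp1 with EC359 against HFD was 0.0125 with totals alone and ranged from -0.0382 to 0.00601 (without HFD replicate 2). None of these differences passed the test, and the cause was not tested. Of the 354 values of members under alternatives, 338 kept direction and side of the test, 7 passed it newly, 1 no longer passed, and 8 changed sign. Libraries with the same replicate number did not deviate together (correlations of -0.03 to 0.02 across genes). Because most libraries of a group differed little beyond counting error, this cannot decide whether the numbers pair tumors. With the replicate number as a block, 2 members were differentially expressed for HFD against LFD, 3 for EC359 against HFD, and 0 for HFD + EC359 against LFD, and no member's call changed.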
